A study of Homo sapiens with 8 samples.

Results

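The NRF2 system described here comprised 9 genes: the transcription factor gene NFE2L2, the gene of its inhibitor KEAP1, and 7 target genes, namely NQO1, GCLC, GCLM, TXNRD1, SRXN1, PGD and ME1. They were chosen by name from 17157 genes that could be paired with a probe, and all 9 had at least 1 paired probe. Transcripts were read with Illumina BeadChips, and the cells were MDA-LM2-shTARBP2, a lung-metastatic derivative of the breast cancer line MDA-MB-231 in which TARBP2, the gene of a double-stranded RNA-binding protein, is itself targeted by a hairpin. 4 samples carried a lentiviral hairpin against the zinc finger gene ZNF395 (shZNF395) and 4 carried a control hairpin (shControl), all selected for hairpin expression and taken at 48 h, so the TARBP2 hairpin was present in every sample of both groups. The series' design text speaks of mock-transfected cells where the sample labels say shControl, and the labels were followed. The labels do not say how many ZNF395 hairpins were used, nor whether the replicates of a group came from separate cultures. The p-values therefore rest on a spread between samples that could be purely technical.

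NRF2, the protein of NFE2L2, switches on genes that make glutathione, reduce thioredoxin and quinones, and supply the NADPH that these reactions consume. In unstressed cells KEAP1 captures NRF2 and hands it to a CUL3 ubiquitin ligase for degradation, and oxidants or electrophiles that modify KEAP1 let NRF2 accumulate. Control is therefore exerted largely on the NRF2 protein, which the arrays did not measure. NRF2 binds with small MAF proteins to antioxidant response elements near its target genes, and cancer cells often run this programme at a raised level.

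The 8 arrays were similar in depth of detection, with 16476 to 17406 of 47323 probes detected on an array at detection p under 0.01. The replicates numbered 3 stood apart in that count, with 17191 probes on shZNF395 3 against 16834 to 16882 on the other shZNF395 arrays, and 16476 on shControl 3 against 17265 to 17406 on the other shControl arrays. A probe was tested when it was detected on at least 4 of the 8 arrays, which left 17184 probes with or without a gene name. Differences are shZNF395 minus shControl on the log2 scale of normalised intensity, and a probe was called higher or lower when its limma p, adjusted by Benjamini-Hochberg over all 17184 probes, was under 0.05. ZNF395 had a log2 intensity of 9.06, 8.99, 9.22 and 9.06 on shZNF395 arrays 1 to 4, against 9.89, 9.81, 9.80 and 10.05 on shControl arrays 1 to 4, or 57.3% of the control level (limma adjusted p = 1.01e-05). Of the markers expected to be present in the line, paired probes of CD44, EGFR and KRT8 were detected on all 8 arrays. Against that expectation, the paired probe of KRT18 was detected on none, and VIM had no paired probe. Probes of ESR1, PGR, ERBB2 and CDH1, expected to be absent, were detected on none.

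A short DNA motif marks where NRF2 can bind, so the promoter windows that hold its core are printed for members whose transcripts moved in either direction. The windows are RefSeq sequences of GRCh38.p14 running from 250 bases before to 50 bases after the transcript start, written 5′ to 3′ on the gene's strand. Capitals mark every match to TGACNNNGC, the core of the antioxidant response element, on either strand.
PGD promoter, chr1:10398814-10399113, plus strand: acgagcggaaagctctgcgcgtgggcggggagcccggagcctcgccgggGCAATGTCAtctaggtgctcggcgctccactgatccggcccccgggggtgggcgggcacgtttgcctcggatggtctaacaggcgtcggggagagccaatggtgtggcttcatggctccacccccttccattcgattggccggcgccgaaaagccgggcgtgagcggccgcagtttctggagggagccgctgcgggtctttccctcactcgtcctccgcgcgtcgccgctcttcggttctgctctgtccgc
ME1 promoter, chr6:83431002-83431301, minus strand: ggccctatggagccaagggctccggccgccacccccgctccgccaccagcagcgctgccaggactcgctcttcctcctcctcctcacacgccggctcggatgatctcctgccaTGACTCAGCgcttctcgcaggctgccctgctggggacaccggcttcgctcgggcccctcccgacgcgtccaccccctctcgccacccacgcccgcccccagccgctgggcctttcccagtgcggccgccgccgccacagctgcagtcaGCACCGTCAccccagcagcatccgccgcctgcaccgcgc
TXNRD1 first promoter window, chr12:104215529-104215828, plus strand: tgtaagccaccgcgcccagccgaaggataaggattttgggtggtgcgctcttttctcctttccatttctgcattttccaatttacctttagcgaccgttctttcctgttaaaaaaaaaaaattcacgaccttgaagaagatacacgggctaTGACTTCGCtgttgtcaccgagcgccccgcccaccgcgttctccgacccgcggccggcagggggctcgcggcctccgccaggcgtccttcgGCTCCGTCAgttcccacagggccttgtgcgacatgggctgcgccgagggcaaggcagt
TXNRD1 second promoter window, chr12:104286782-104287081, plus strand: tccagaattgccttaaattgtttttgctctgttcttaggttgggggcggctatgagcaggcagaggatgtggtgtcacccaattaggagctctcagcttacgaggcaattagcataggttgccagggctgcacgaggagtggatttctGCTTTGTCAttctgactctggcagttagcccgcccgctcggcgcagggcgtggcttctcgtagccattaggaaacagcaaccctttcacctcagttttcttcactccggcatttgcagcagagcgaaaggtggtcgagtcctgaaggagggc
GCLM promoter, chr1:93909381-93909680, minus strand: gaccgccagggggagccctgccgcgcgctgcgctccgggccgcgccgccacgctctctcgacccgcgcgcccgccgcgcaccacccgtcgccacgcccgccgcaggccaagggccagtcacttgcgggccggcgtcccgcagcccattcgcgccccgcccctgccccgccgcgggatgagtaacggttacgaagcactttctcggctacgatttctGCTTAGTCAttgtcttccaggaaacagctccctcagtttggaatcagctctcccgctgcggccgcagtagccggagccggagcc
KEAP1 promoter window with matches, chr19:10502722-10503021, minus strand: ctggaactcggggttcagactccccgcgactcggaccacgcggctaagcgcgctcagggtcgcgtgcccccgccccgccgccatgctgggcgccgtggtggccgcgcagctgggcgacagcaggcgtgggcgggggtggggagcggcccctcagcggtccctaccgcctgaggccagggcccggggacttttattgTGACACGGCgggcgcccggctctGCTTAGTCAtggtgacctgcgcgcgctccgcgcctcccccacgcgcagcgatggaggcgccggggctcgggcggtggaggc

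The core was found in 6 of the 12 windows listed for the 9 genes, against 13.3% of all 35116 promoter windows of the same length. By gene, 5 of the 9 had at least 1 such window. The genes were chosen by name as an NRF2 set, so a share above that of all windows is no result of these data. With positions counted from 1 at the transcript start and negative before it, GCLM held TGACTAAGC on the reverse strand at -34 to -26, and KEAP1 held the same 9 letters on the reverse strand at -31 to -23. ME1 held TGACTCAGC at -137 to -129, a match that also contains the AP-1 motif TGANTCA, which is found in 7.71% of all windows. The other capitalised matches, in PGD, TXNRD1, ME1 and KEAP1, do not contain that motif. The windows of NFE2L2, NQO1, GCLC and SRXN1, and the other KEAP1 window, held no TGACNNNGC. A match is a run of letters and not evidence of binding, and elements farther from the transcript start lie outside these windows.

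After ZNF395 knock-down the members did not move as a block. The NADPH-producing enzyme genes PGD and ME1 were higher by 1.63-fold and 1.59-fold, NQO1 and GCLC were higher by 1.35-fold and 1.30-fold on their brighter probes, and KEAP1 was lower, at 80.4% and 84.3% of the control level on its 2 detected probes. TXNRD1 was slightly lower on the brighter of its 2 probes, and GCLM on the dimmer of its 2, while NFE2L2 and SRXN1 did not pass the test. Of 15 paired member probes 14 were detected and tested, and of these 5 were higher and 4 lower. That is 64.3% called, against 55.4% of all detected probes. The shares by direction were 35.7% higher, against 25.3% of all probes, and 28.6% lower, against 30.0% of all probes. With at least 1.5-fold required as well, 2 of the 14 (14.3%) were called, against 15.9% of all probes. Both were higher, where 9.15% of all probes were, and 0 were lower, where 6.70% of all probes were. On 7 of the 14 the arrays of the groups did not overlap, which held for 49.0% of all probes. The median difference was 0.03 over the 14 member probes and -0.05 over all tested probes. These shares lie near the background, so the number of members called is not a result about the members, and what follows describes their sizes and directions.

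**Figure D1:**
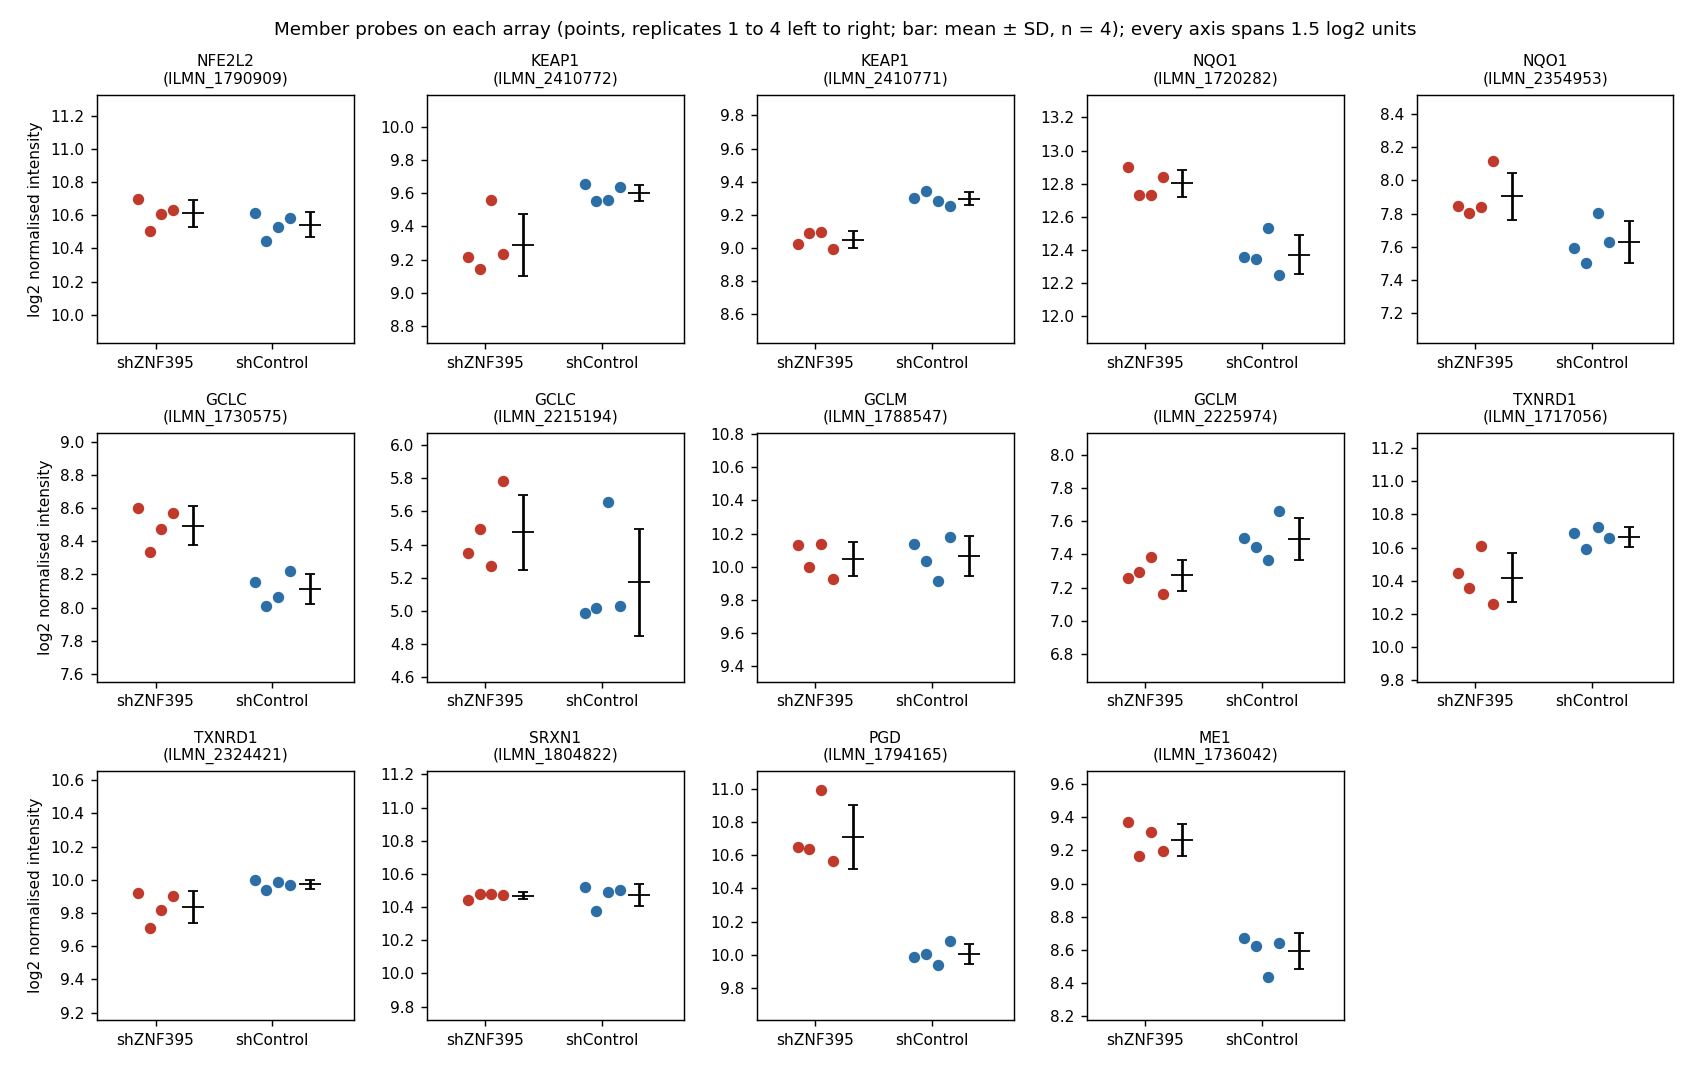
Log2 normalised intensity of each of the 14 tested member probes on each array, shZNF395 in red and shControl in blue, with the mean ± SD (n = 4) beside the points. PGD, ME1, both NQO1 probes and the brighter GCLC probe (ILMN_1730575) are higher on every shZNF395 array than on any shControl array, whereas NFE2L2 and SRXN1 overlap.

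NFE2L2, the gene of NRF2 itself, read 10.70, 10.50, 10.61 and 10.63 on shZNF395 arrays 1 to 4, against 10.62, 10.45, 10.53 and 10.58 on shControl arrays 1 to 4. The groups overlapped over most of their range. The difference was 0.07 (SE 0.067, 95% interval -0.08 to 0.21, limma adjusted p = 0.416).

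KEAP1, the adaptor that marks NRF2 for degradation, was read by 3 paired probes. ILMN_2410771 gave 9.02, 9.09, 9.10 and 8.996 on shZNF395 arrays, against 9.30, 9.35, 9.29 and 9.26 on shControl arrays, so every shZNF395 array was below every shControl array. Its difference was -0.25 (SE 0.058, limma adjusted p = 0.00407). ILMN_2410772 gave 9.21, 9.14, 9.56 and 9.23 on shZNF395 arrays, against 9.65, 9.55, 9.56 and 9.63 on shControl arrays. Here shZNF395 3 lay among the controls and the other shZNF395 arrays lay below them. Its difference was -0.31 (SE 0.090, limma adjusted p = 0.0121), and -0.42 without both arrays numbered 3. The third probe, ILMN_1711787, which stands for the transcript NM_203500, was below detection on all 8 arrays and was not tested.

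**Figure D2:**
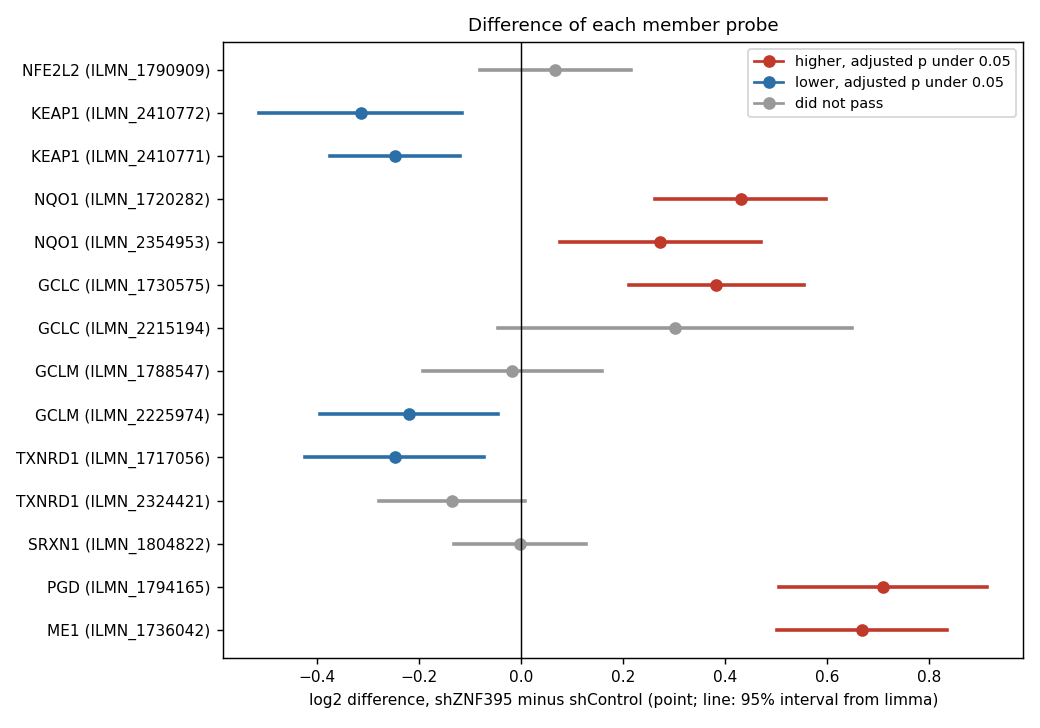
Difference in log2 intensity, shZNF395 minus shControl, for each tested member probe, with the 95% interval from limma; red probes were called higher, blue lower, and grey did not pass. PGD (0.71) and ME1 (0.67) lie farthest to the right and the brighter KEAP1 probe (-0.31) farthest to the left.

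NQO1 encodes a quinone reductase that uses NADPH or NADH and is a standard readout of NRF2 activity. Its brighter probe, ILMN_1720282, gave 12.90, 12.73, 12.73 and 12.84 on shZNF395 arrays, against 12.36, 12.34, 12.53 and 12.25 on shControl arrays. The groups did not overlap, and the difference was 0.43 (SE 0.076, limma adjusted p = 0.000672). The dimmer probe, ILMN_2354953, gave 7.85, 7.81, 7.84 and 8.12 on shZNF395 arrays, against 7.59, 7.50, 7.80 and 7.63 on shControl arrays. These groups did not overlap either, although shZNF395 2 and shControl 3 lay close together. The difference was 0.27 (SE 0.089, limma adjusted p = 0.0231). Its call was lost without shControl 1 (adjusted p = 0.0564), shControl 2 (adjusted p = 0.0684) or shZNF395 4 (adjusted p = 0.0621), in each case by limma. The changes of the 2 NQO1 probes differed by 0.16 (SE 0.082, two-sided exact permutation p = 0.114, adjusted p = 0.183 over the 8 within-array contrasts computed, which were chosen after the values were seen).

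GCLC and GCLM encode the catalytic and modifier subunits of glutamate-cysteine ligase, which makes the rate-limiting step of glutathione synthesis. The brighter GCLC probe, ILMN_1730575, gave 8.60, 8.33, 8.47 and 8.57 on shZNF395 arrays, against 8.15, 8.01, 8.06 and 8.22 on shControl arrays. Every shZNF395 array was above every shControl array, and the difference was 0.38 (SE 0.078, limma adjusted p = 0.00168). The dimmer GCLC probe, ILMN_2215194, was near the detection limit, being detected on 4 shZNF395 arrays and 1 shControl array. It gave 5.35, 5.50, 5.27 and 5.78 on shZNF395 arrays, against 4.99, 5.02, 5.65 and 5.03 on shControl arrays, and its difference of 0.30 did not pass (limma adjusted p = 0.125). The control array on which it was detected was shControl 3, also the highest control, and on the other controls the probe has only a bound.

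On its brighter probe, the modifier subunit gene did not show the rise of the catalytic one. The brighter GCLM probe, ILMN_1788547, gave 10.13, 10.00, 10.14 and 9.93 on shZNF395 arrays, against 10.14, 10.03, 9.91 and 10.18 on shControl arrays, and the groups overlapped. Its difference was -0.02 (95% interval -0.19 to 0.16, limma adjusted p = 0.868). The dimmer GCLM probe, ILMN_2225974, gave 7.26, 7.29, 7.38 and 7.16 on shZNF395 arrays, against 7.50, 7.45, 7.36 and 7.66 on shControl arrays, with shControl 3 inside the shZNF395 range. Its difference of -0.22 passed narrowly (limma adjusted p = 0.0349), and the call was lost when any array other than the 2 numbered 3 was left out, with adjusted p up to 0.103, and with the replicate number as a block (adjusted p = 0.0951). The ratio of the brighter GCLC probe to the brighter GCLM probe was higher by 0.40 on the log2 scale in shZNF395 (SE 0.082), with no overlap between groups. This ratio was chosen after its parts were seen and is given as a description. The changes of the 2 GCLM probes differed from each other by 0.20 (SE 0.044), without overlap between groups. For this contrast and for the GCLC to GCLM ratio, the exact permutation p was 0.0286, the smallest that 4 against 4 arrays allow. Adjusted over the same 8 contrasts it was 0.0571, so neither passed. The pairing of GCLM with its probes is less certain than that of the other members, since 2 pairs of probes gave the authors' value for its entry. In the other candidate pair, 1 probe, ILMN_1679978, was assigned by the same search to another transcript, NM_030798, and had a difference of -0.28 (limma adjusted p = 0.0315), and the second probe was below detection on all 8 arrays.

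TXNRD1 encodes the cytosolic thioredoxin reductase, which passes electrons from NADPH to thioredoxin. The probe ILMN_1717056 gave 10.45, 10.35, 10.61 and 10.26 on shZNF395 arrays, against 10.69, 10.59, 10.73 and 10.66 on shControl arrays. Only shZNF395 3 reached into the control range. The difference was -0.25 (SE 0.080, limma adjusted p = 0.0216), with adjusted p of 0.0517 without shControl 1, 0.0562 without shZNF395 2 and 0.0632 without shZNF395 4. The other TXNRD1 probe, ILMN_2324421, gave 9.92, 9.71, 9.82 and 9.90 on shZNF395 arrays, against 10.00, 9.94, 9.99 and 9.97 on shControl arrays. Its groups did not overlap, but its difference of -0.14 did not pass (limma adjusted p = 0.0985). The 2 probes stand for the transcripts NM_001093771 and NM_182743, and their changes differed by -0.11 (SE 0.093, exact permutation p = 0.314, adjusted p = 0.419). The same contrast gave -0.07 between the 2 detected KEAP1 probes (SE 0.094, exact permutation p = 0.543, adjusted p = 0.62) and 0.08 between the GCLC probes (SE 0.218, exact permutation p = 0.743).

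SRXN1 encodes sulfiredoxin, which repairs over-oxidised peroxiredoxins. It read 10.44, 10.48, 10.48 and 10.47 on shZNF395 arrays, against 10.52, 10.37, 10.49 and 10.50 on shControl arrays. The difference was -0.0017 within a 95% interval of -0.13 to 0.13 (limma adjusted p = 0.983). The shZNF395 arrays spread by an SD of 0.019, less than for any other tested member probe.

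PGD encodes 6-phosphogluconate dehydrogenase, the NADPH-forming enzyme of the oxidative pentose phosphate pathway that acts after PGLS. It read 10.65, 10.64, 10.99 and 10.56 on shZNF395 arrays, against 9.99, 10.01, 9.94 and 10.08 on shControl arrays. The groups lay well apart, with shZNF395 3 the highest array. The difference was 0.71 (SE 0.092, limma adjusted p = 8.52e-05), and 0.59 without both arrays numbered 3. ME1, the cytosolic malic enzyme that forms NADPH from malate, read 9.37, 9.17, 9.31 and 9.20 on shZNF395 arrays, against 8.67, 8.62, 8.44 and 8.64 on shControl arrays. Its difference was 0.67 (SE 0.075, limma adjusted p = 3.13e-05), and 0.60 without both arrays numbered 3. Among all 17184 tested probes, 10.2% had a larger absolute difference than PGD and 11.9% a larger one than ME1.

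Per transcript, the authors' deposited table, in which differences of dim probes are shrunk, gives 0.68 for PGD, 0.56 for ME1, 0.31 for NQO1, 0.19 for GCLC, -0.08 for GCLM and -0.24 for the KEAP1 entry NM_012289. It holds 1 value for each transcript, so the values for NQO1, GCLC, GCLM and that KEAP1 entry are each the mean of 2 probes. For GCLC the mean joins a probe that passed here and a probe near the detection limit that did not.

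**Figure D3:**
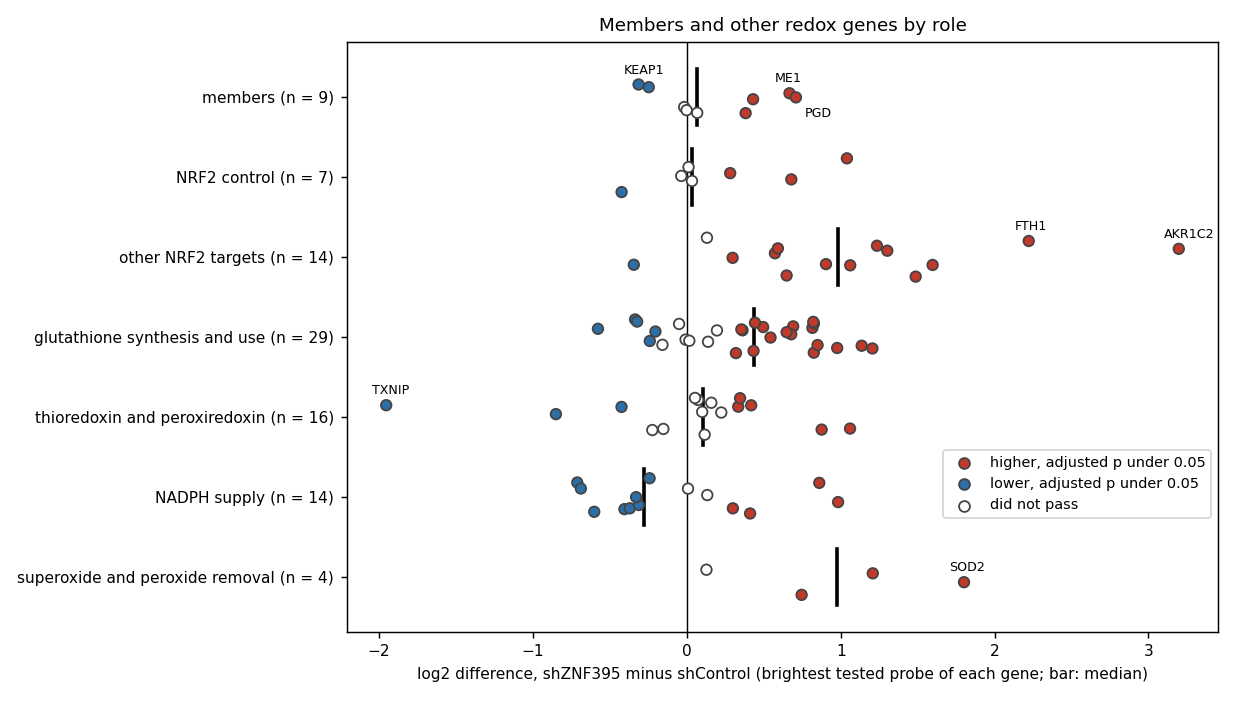
Log2 difference, shZNF395 minus shControl, of the 9 members and of genes on 6 further redox lists, each gene read by its brightest tested probe; red genes were called higher, blue lower, open circles did not pass, and the black bar is the list's median. The median is 0.07 for the members and 0.98 for other NRF2 targets; AKR1B10 and SOD3, below detection on all shControl arrays, are drawn at their fitted values.

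Other genes of the pathway were taken from 6 lists, chosen with earlier results of these data known, so their counts are descriptions. Each gene was read by its brightest tested probe, and paired genes without a tested probe do not enter the counts. The counts stand against 25.3% higher and 30.0% lower among all detected probes, whose median difference was -0.05. Among genes that control NRF2 or encode related factors, 3 of 7 tested were higher and 1 lower. BACH1, MAFK and PGAM5, on the same list, were below detection on every array. SQSTM1, whose protein p62 binds KEAP1 and draws it into autophagy, was higher by 1.04 (SE 0.065, limma adjusted p = 4.29e-07). NFE2L1, the gene of a related factor that drives proteasome genes, was higher by 0.68. NFE2L3, the gene of another related factor, was higher by 0.28 and was named after its value was seen. BTRC, which encodes a second adaptor for NRF2 degradation, was lower, with a difference of -0.42. The ligase gene RBX1 (0.01), GSK3B (0.03) and the small MAF gene MAFG (-0.04) did not pass.

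Of 14 further NRF2 targets tested 12 were higher and 1 lower, against 25.3% higher and 30.0% lower among all probes. The median difference was 0.98, or 0.87 with AKR1B10, which was below detection on all shControl arrays, set at its lower bound. Of the 17 paired genes on this list, ABCC1, ABCC2 and AKR1C1 were below detection on every array. The 3 with the smallest p were FTH1, the ferritin heavy chain gene (2.22), and the aldo-keto reductase genes AKR1C2 (3.20) and AKR1C3 (1.60), each with limma adjusted p of at most 3.15e-08. FTH1 shares sequence with pseudogenes and the AKR1C genes resemble each other, so these probes may read more than 1 transcript. The lower gene was the carbonyl reductase CBR3 (-0.34), and CBR1 (0.13) did not pass. The cystine carrier gene SLC7A11, which feeds GCLC with its substrate's precursor, was higher by 0.65, and HMOX1, the gene of haem oxygenase, by 0.30 (limma adjusted p = 0.0107); these 4 genes, and RBX1, GSK3B and MAFG above, were named after their values were seen.

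Of 29 tested genes of glutathione synthesis and use 18 were higher and 5 lower, against 25.3% higher and 30.0% lower among all probes, with a median of 0.43. SLC7A11, among the higher genes here, also counts among the further NRF2 targets above. Glutaredoxin (GLRX) was higher by 1.21, the lipid peroxide-reducing glutathione peroxidase GPX4 by 0.98 and the microsomal glutathione transferase MGST3 by 1.14, each with limma adjusted p of at most 8.1e-07. Glutathione synthetase, GSS, which completes the pathway that glutamate-cysteine ligase starts, did not pass (-0.05, limma adjusted p = 0.636), and glutathione reductase, GSR, was higher by 0.35 (limma adjusted p = 0.00342). GSS and GSR were also named after their values were seen.

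Of 16 thioredoxin and peroxiredoxin genes 5 were higher, 3 lower and 8 did not pass, so the share called was near the 55.4% of all probes. TXNIP, the thioredoxin inhibitor, was lower (-1.95), the peroxiredoxin gene PRDX5 higher by 1.06 and the methionine sulfoxide reductase gene MSRB2 higher by 0.88. Of 14 further NADPH supply and pentose phosphate genes 4 were higher and 8 lower, against 25.3% higher and 30.0% lower among all probes, with a median of -0.28, so most of them did not share the direction of PGD and ME1. PGLS, which acts directly before PGD, was higher by 0.86 and the cytosolic isocitrate dehydrogenase IDH1 by 0.98, whereas the mitochondrial folate enzyme gene MTHFD1L was lower (-0.71), each with limma adjusted p of at most 4.03e-06. Of 4 superoxide and peroxide genes 3 were higher, against 25.3% of all probes, namely SOD2 (1.80), CAT (0.75) and SOD3, which was below detection on all shControl arrays and at least 1.63-fold higher in shZNF395.

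By array, the mean of the standardised values of the 7 target genes was most like the profile of HEG1 (Pearson r = 0.994), PTPRM (r = 0.986) and SSU72 (r = 0.977) among 9442 other genes over the 8 arrays. These correlations include the group difference, and SSU72 itself did not pass the test (limma adjusted p = 0.141).

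Markers of other cell types moved in part with these results. Of 7 leukocyte markers 2 were detected on all 8 arrays, CD14, which was higher by 1.45, and LAPTM5, while PTPRC, TYROBP, ITGAM and CD3D were below detection on every array. The summed normalised signal of the leukocyte probes was 1112 to 1386 on shZNF395 arrays and 845 to 979 on shControl arrays. Of 5 endothelial markers 3 were tested and all 3 were higher, against 25.3% of all probes. PECAM1 among them was detected on only 2 of 4 shControl arrays, and its groups overlapped (limma adjusted p = 0.0377). CDH5 and VWF were undetected on every array, and the sum was 2098 to 2314 on shZNF395 arrays, against 1216 to 1328 on shControl arrays. Of 5 fibroblast markers 1 was tested, COL1A1, which was higher by 0.29, with COL3A1 and DCN undetected and a sum of 497 to 512 on shZNF395 arrays, against 401 to 448 on shControl arrays. Their part in the members' differences was not tested, and in bulk RNA a change in the share of cells that express a gene cannot be told apart from a change per cell.

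**Figure D4:**
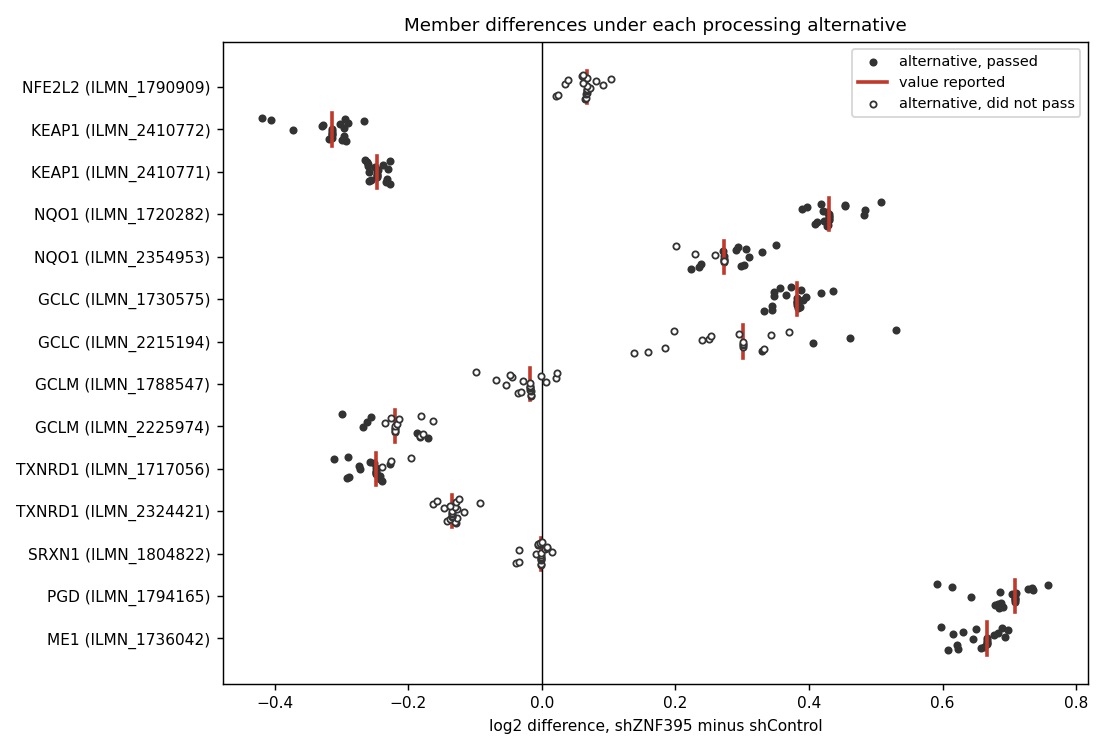
Log2 difference, shZNF395 minus shControl, of each tested member probe as reported (red bar) and under each processing alternative (points, filled where the adjusted p stayed under 0.05). All alternatives stay to the right of 0 for PGD, ME1, NQO1 and GCLC and to the left for KEAP1 and TXNRD1, whereas SRXN1 and the brighter GCLM probe lie on both sides.

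The calls of PGD, ME1, KEAP1 on both detected probes, NQO1 on its brighter probe and GCLC on its brighter probe held under each of 20 alternatives of background correction, normalisation, filter, moderation, weights, block and arrays left out. Over these, the difference ranged between 0.59 and 0.76 for PGD, 0.60 and 0.70 for ME1, 0.39 and 0.51 for NQO1 and 0.33 and 0.44 for GCLC. KEAP1 ranged between -0.42 and -0.27 on its brighter probe and between -0.27 and -0.23 on the other detected probe.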

How the data were processed

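Per the labels' protocols, biotin-labelled total RNA was hybridised to BeadChips of 4 shZNF395 and 4 shControl samples. The deposited non-normalised table gives intensity, and beside it the detection p-value, for every probe and array, per the file headers. The deposited series matrix holds linear intensity whose values are the same set on every array, as after quantile normalisation, and lumi is the tool that the submitters' processing notes list. The authors' deposited fold-change table gives 1 log value per transcript, treated here as log2-like. It was not used for tests.

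No file pairs probes with transcripts, so pairing was recovered from values. Series matrix values were put through an inverse hyperbolic sine, and their group difference matched 33125 of 39747 entries to 1 probe within 1e-09, against 12 after a shift. A further 2417 matched the mean of 2 probes within 7e-10, of which the first pass found 1124, against 26 after a shift. Pairs expected by chance at over 0.1 per entry were not accepted, a limit set after seeing that 0.05 left GCLM unresolved. Symbols came from a RefSeq table of GRCh38.p14, and 32.8% of tested probes had none, so a member may have further probes.

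Non-normalised signals went through limma 3.58.1 under R 4.3.3 (normexp with negative controls inferred from detection p-values, offset 16, quantile normalisation, log2), then lmFit and eBayes, two-sided. Probe pairs in 1 array were compared by exact permutation over samples (scipy 1.17.1, Python 3.11.15). The fit was also run on simulated data with independent normal noise and few shifted probes. Most probes were called in the real data, so that run does not check the fit in their setting. The main fit did not pair samples by replicate number. Same-numbered arrays' deviations from their group means correlated at -0.11, 0.01, -0.42 and -0.09, which does not show whether those samples were prepared together. The value of -0.42 is for the arrays numbered 3, which tended to deviate from their groups in opposite directions. By rule, the named genes are every member probe, ZNF395, up to 3 called genes per list with the smallest p, and the 3 genes most like the targets' mean profile. Undetected genes, cell type markers and the genes said above to be named after their values were seen come in addition. Members and lists were chosen with earlier results of these data known. The number of arrays limits the precision.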

Additional observations from a re-analysis of the deposited data

Results flagged for a closer look

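In 2 of the 32 groups of 4 arrays examined for the members and ZNF395, 1 array lay far from the other 3, where chance gives about 1 in 20. The dimmer NQO1 probe, ILMN_2354953, stood at 8.12 on shZNF395 4, against 7.81 to 7.85 on the other shZNF395 arrays. The dimmer GCLC probe, ILMN_2215194, stood at 5.65 on shControl 3, against 4.99 to 5.03 on the other shControl arrays. The causes were not tested.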

How the results depend on the processing

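Of 14 tested member probes 9 were called, and 5 at an adjusted p under 0.01 or 2 with at least 1.5-fold required. Leaving out 1 array at a time gave 6 to 10 called member probes and 8597 to 9678 of all probes. Leaving out both arrays numbered 3, an alternative chosen after seeing the data, gave 10 and 9992. With the replicate number as a block, 8 member probes and 8540 of all probes were called, and the dimmer GCLM probe was the member call that was lost. Sign changes were limited to 2 probes that did not pass: SRXN1 lay between -0.034 and 0.0146 with 1 array left out and at 0.00025 without both arrays numbered 3, and the brighter GCLM probe between -0.0685 and 0.0231 with 1 array left out. The dimmer GCLM probe lost its call under 10 alternatives, the dimmer NQO1 probe under 4 and the brighter TXNRD1 probe under 3, and the dimmer GCLC probe gained one under 4, of which 2 left out shControl 3, its 1 detected control. The cause was not tested. Probes with a log2 intensity near 5 sit at the detection limit, where a small difference was not detectable, and 4 arrays per group limit the precision of all values.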
